A study of Bos taurus with 21 samples.

Results

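The genes described here are *ACBD6*, *RNF121*, *FBXL5*, *KRT24*, *ASMT*, *ACOT11*, *AGTR1* and *TMEM176B*, chosen by the difference of their measured levels between the muscle of Blonde d'Aquitaine (BA) and Charolais (CH) foetuses on these arrays. The members are all the probes whose transcript accession belongs to one of the 8 genes. There were 23 such probes, of 26628 probes named through their accession, and the 8 genes stood among 12538 named genes. Because the breed difference chose the genes, it is given as a description with no test, and other measures were tested. Of these, the stage change within a single breed shares its group means with that difference and is not independent of the choice.

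RNA of muscle was measured on 21 single-colour arrays, 1 per foetus. BA, a French beef breed noted for heavy muscling, was represented by 10 foetuses, with 3 at 110, 2 at 180, 3 at 210 and 2 at 260 days post-conception (dpc). CH, a second French beef breed, was represented by 11 foetuses, with 2, 3, 3 and 3 at the same stages. The foetuses were untreated, came from artificial insemination within each breed and had 2 sires per breed, with 3 males among the BA and 5 among the CH foetuses. The BA foetuses were not genotyped for the *MSTN* mutation that is common in the breed, so BA stands for a breed and not for a genotype. The labels name the muscle *m. Longissimus thoracis* and the study's methods *m. Semitendinosus*. Markers of muscle fibres lay far above the median probe, with *ACTA1* (skeletal actin) at 10.84 and *MYH3* (embryonic myosin) at 10.55. A level is a log2 intensity scaled to each array's 75th percentile, on which 0 is the median probe, so a step of 1 is a doubling. The number of probes well above background was between 29027 and 34507 of 43653 per array, and 22 of the 23 probes were well above background on all 21 arrays. Only the second *ASMT* probe was not. Levels of different probes cannot be set against each other, since each probe binds with its own strength.

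These genes work in several pathways. *ACBD6* binds long-chain acyl-CoA and assists the attachment of myristate to proteins, and *ACOT11* is a thioesterase that splits fatty acyl-CoA. *RNF121* is a membrane-bound ubiquitin ligase of the secretory pathway, and *FBXL5* is the iron-sensing subunit of a ubiquitin ligase that removes iron regulatory proteins. *AGTR1* is the main receptor of angiotensin II and acts in vessels and smooth muscle. *ASMT* carries out the last step of melatonin synthesis, best known in the pineal gland. *KRT24* is a type I keratin of epithelia, and *TMEM176B* is a membrane protein known from myeloid and dendritic cells. An array probe reads both how much RNA is present and how well that RNA fits the probe, so for each gene the probe with the largest average breed difference (the lead probe) is set beside the other probes of the same transcript (its siblings). The sequences of the probes were not used here, and a base difference between the breeds under a probe was not tested.

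Of the 8 lead probes, 5 were lower in BA (*ACBD6*, *KRT24*, *ASMT*, *AGTR1* and *TMEM176B*) and 3 were higher (*RNF121*, *FBXL5* and *ACOT11*). The 2 breeds did not overlap at any of the 4 stages, and kept one direction, for 4 of the 23 probes, which were the lead probes of *ACBD6*, *RNF121*, *FBXL5* and *ASMT*. Among all tested probes 0.15% were apart in this way (0.0798% with BA higher and 0.0698% with CH higher), and since the genes were picked for it, nothing is read from the comparison. For 1 probe, the *RNF121* lead, every BA array was above every CH array, which held for 0.0199% of all tested probes. Over all tested probes, 0.358% passed limma's test of the average breed difference.

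**Figure D1:**
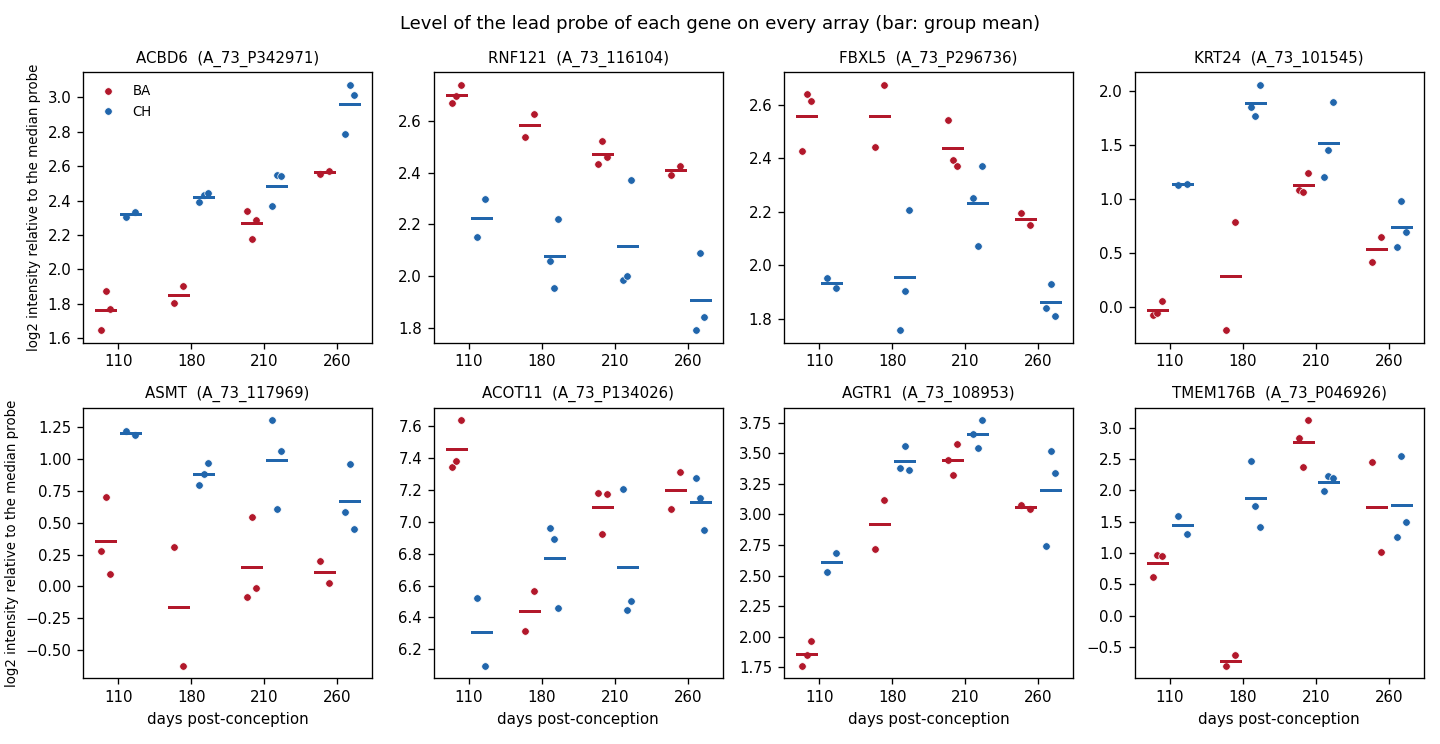
Level of the lead probe of each gene (log2 intensity relative to the median probe) against days post-conception. Each point is 1 array, red for BA and blue for CH, and bars are group means. *RNF121* stood between 2.39 and 2.74 in BA and between 1.79 and 2.37 in CH, whereas *TMEM176B* in BA went from below 0 at 180 dpc to values between 2.37 and 3.11 at 210 dpc.

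*ACBD6* was lower in BA at every stage. On its lead probe, A_73_P342971, the BA levels were 1.65, 1.87 and 1.77 at 110 dpc, 1.81 and 1.90 at 180 dpc, 2.34, 2.18 and 2.28 at 210 dpc and 2.55 and 2.57 at 260 dpc. The CH levels were 2.31 and 2.34, then 2.39, 2.43 and 2.44, then 2.37, 2.55 and 2.54, and last 2.79, 3.07 and 3.02 at the same stages. Both BA arrays of 260 dpc lay near the highest CH arrays of 210 dpc. BA minus CH was −0.56 at 110, −0.57 at 180, −0.22 at 210 and −0.40 at 260 dpc, and on average −0.43 ± 0.05 (SE), which is 1.35 times more in CH. The sibling A_73_101074 gave −0.29 ± 0.07 on average, with the same sign at all 4 stages and the breeds apart at 2 of them. Both probes rose and fell together over the 21 arrays (Pearson r = 0.95), and once the mean of each breed and stage group was removed the correlation was 0.75.

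*RNF121* was higher in BA at every stage. The lead probe A_73_116104 had BA levels of 2.67, 2.70 and 2.74 at 110 dpc, 2.54 and 2.63 at 180 dpc, 2.43, 2.52 and 2.46 at 210 dpc and 2.39 and 2.43 at 260 dpc. In CH it had levels of 2.15 and 2.30, then 2.06, 1.95 and 2.22, then 1.98, 2.00 and 2.37, and last 1.79, 2.09 and 1.84. The lowest BA array, at 260 dpc, was just above the highest CH array, at 210 dpc (2.39 against 2.37). BA minus CH was 0.48, 0.51, 0.35 and 0.50 from the earliest to the latest stage, on average 0.46 ± 0.06 (SE) or 1.38 times. The sibling A_73_P319196, a dimmer probe, gave 0.26 ± 0.08 with BA higher at all 4 stages and the breeds apart at 2. The probes correlated with r = 0.64 over the arrays and 0.35 with group means removed.

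*FBXL5* was higher in BA on one of its probes and alike in the means of both breeds on the other. On A_73_P296736, the lead, the BA levels were 2.42, 2.64 and 2.61 at 110 dpc, 2.44 and 2.67 at 180 dpc, 2.54, 2.39 and 2.37 at 210 dpc and 2.19 and 2.15 at 260 dpc. The CH levels on that probe were 1.95 and 1.92, then 1.76, 1.90 and 2.21, then 2.25, 2.07 and 2.37, and last 1.84, 1.93 and 1.81. No stage overlapped, although at 210 dpc the highest CH array and the lowest BA array were both at 2.37. BA minus CH was 0.63, 0.60, 0.21 and 0.31 over the stages, on average 0.44 ± 0.06 (SE) or 1.35 times. The sibling A_73_115877 is the brighter of the pair, with intensities between 2180 and 4670 against 310 to 913 for the lead. Its BA levels ran from 4.57 to 5.02 and its CH levels from 4.67 to 5.09, overlapping at all 4 stages. Its average difference was 0.02 ± 0.07 (SE), −0.15 at 110 dpc and 0.11 at 260 dpc. The *FBXL5* probes did not follow each other, with r = 0.05 over the 21 arrays and −0.17 with group means removed. What sets the *FBXL5* probes apart was not tested.

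**Figure D2:**
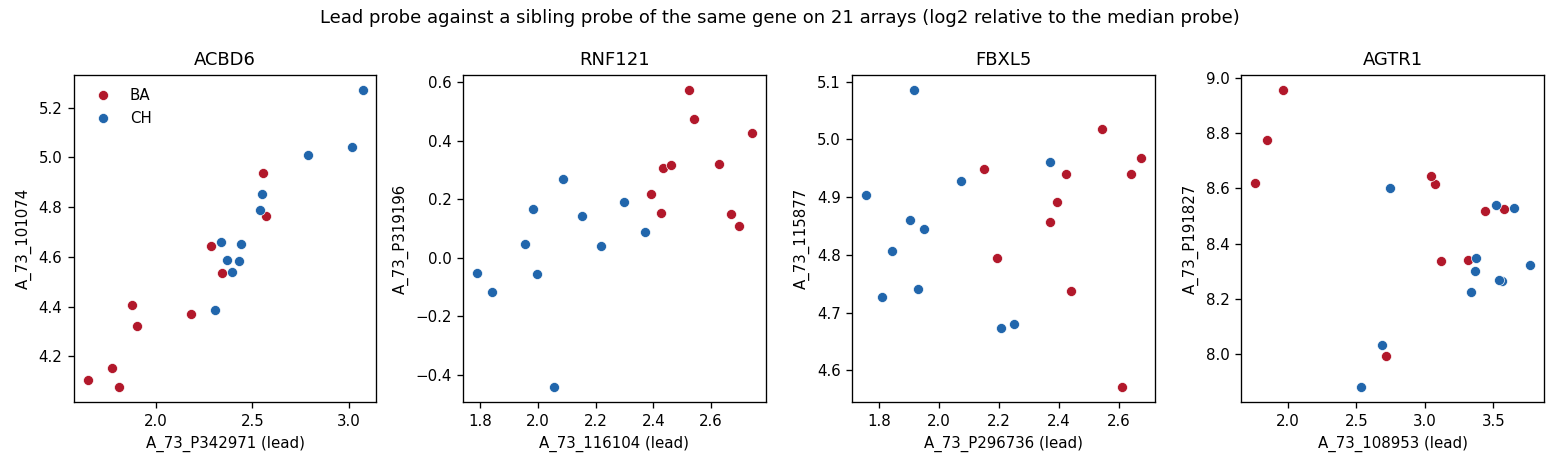
The lead probe (x axis) against a sibling probe of the same gene (y axis) for *ACBD6*, *RNF121*, *FBXL5* and *AGTR1*, both as log2 intensity relative to the median probe, with 1 point per array (red BA, blue CH). The *ACBD6* probes lie along a line (r = 0.95), the *FBXL5* probes do not (r = 0.05), and the bright *AGTR1* probe was at 8.62 to 8.96 on the BA arrays of 110 dpc, where the lead was lowest.

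*ASMT* was lower in BA at every stage, near the median level of the array. The lead A_73_117969 had BA levels of 0.28, 0.70 and 0.09 at 110 dpc, 0.31 and −0.62 at 180 dpc, −0.08, 0.55 and −0.01 at 210 dpc and 0.20 and 0.02 at 260 dpc. CH foetuses had 1.22 and 1.19, then 0.79, 0.88 and 0.97, then 1.30, 0.61 and 1.06, and last 0.59, 0.96 and 0.45. The breeds were apart at each stage, by a narrow step at 210 dpc. The differences, BA minus CH, were −0.84, −1.04, −0.84 and −0.56, and the average was −0.82 ± 0.13 (SE), 1.76 times more in CH. The sibling A_73_P044741 was dim, with intensities between 10.1 and 52.1, well above background on 9 of 21 arrays and under the expression filter. It gave −0.42 ± 0.16 (SE) with CH higher at all 4 stages, from −0.08 at 110 dpc to −1.12 at 260 dpc. Its correlation with the lead was 0.60, and 0.70 with group means removed.

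*KRT24*, with 1 probe, was lower in BA, mostly at 110 and 180 dpc. At 110 dpc A_73_101545 stood at −0.07, −0.06 and 0.06 in BA and at 1.13 and 1.15 in CH. At 180 dpc it stood at −0.21 and 0.79 in BA and at 1.86, 1.77 and 2.06 in CH. The BA levels were 1.09, 1.07 and 1.24 at 210 dpc and 0.42 and 0.65 at 260 dpc, and the CH levels were 1.21, 1.46 and 1.90 and then 0.56, 0.99 and 0.69, so both later stages overlapped. BA minus CH was −1.16, −1.61, −0.39 and −0.21, on average −0.84 ± 0.11 (SE) or 1.79 times more in CH. Of the epidermal markers, *KRT5* was well above background on 4 of 21 arrays and *KRT10* and *TP63* on 0, while *KRT14* (at 4.19), *DSG3* (1.26) and *KRT15* (0.78) were on all 21. The mean of the 6 epidermal markers measured ran from −1.29 to −0.35 over the BA arrays and from −1.17 to −0.38 over the CH arrays.

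*TMEM176B*, also with 1 probe (A_73_P046926), had the widest swings. At 180 dpc it was at −0.80 and −0.63 in BA and at 2.47, 1.75 and 1.42 in CH. At 210 dpc the order was turned, with 2.83, 2.37 and 3.11 in BA and 1.98, 2.23 and 2.19 in CH. At 110 dpc BA had 0.62, 0.97 and 0.96 and CH 1.59 and 1.30, and at 260 dpc the levels of 2.45 and 1.02 in BA and 1.25, 2.54 and 1.49 in CH overlapped. BA minus CH was therefore −0.60, −2.59, 0.63 and −0.02 over the stages. The average of −0.64 ± 0.19 (SE) joins stages of opposite sign. The mean of 8 leukocyte markers was between 1.86 and 3.18 in BA and between 1.54 and 2.33 in CH, higher in BA by 0.29 on average, and with stage means removed its correlation with *TMEM176B* was −0.19. RNA of *TMEM176A*, the gene's partner in the same family, was under the expression filter.

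*AGTR1* gave opposite signs on its probes. Its 6 probes belong to 1 transcript accession, and 2 of them were dim (intensities of 375 to 2290 and of 172 to 1050) while 4 were bright (6580 to 97000). On the dim lead A_73_108953 the BA levels were 1.76, 1.85 and 1.97 at 110 dpc, 2.72 and 3.12 at 180 dpc, 3.44, 3.32 and 3.58 at 210 dpc and 3.08 and 3.04 at 260 dpc. The CH levels there were 2.53 and 2.69, then 3.38, 3.56 and 3.36, then 3.65, 3.54 and 3.77, and last 2.74, 3.52 and 3.33. The breeds were apart at 110 and 180 dpc and overlapped later. BA minus CH was −0.75, −0.51, −0.21 and −0.14, on average −0.40 ± 0.09 (SE), and the other dim probe, A_73_P104191, gave −0.37 ± 0.11. The 4 bright probes gave averages of 0.16 to 0.24, higher in BA. Most of this lay at 110 dpc, as on A_73_P191827 with BA at 8.62, 8.78 and 8.96 and CH at 7.88 and 8.03, where BA minus CH was 0.83. Smooth muscle markers, whose cells are a known site of the receptor, had a mean level of 4.20 to 4.97 over the BA arrays and of 4.24 to 5.64 over the CH arrays. Its correlation with the *AGTR1* lead was −0.17 with stage means removed and −0.66 with group means removed, and that with the *ACBD6* lead was −0.04 and −0.85. The part of these cells in the levels was not tested.

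**Figure D3:**
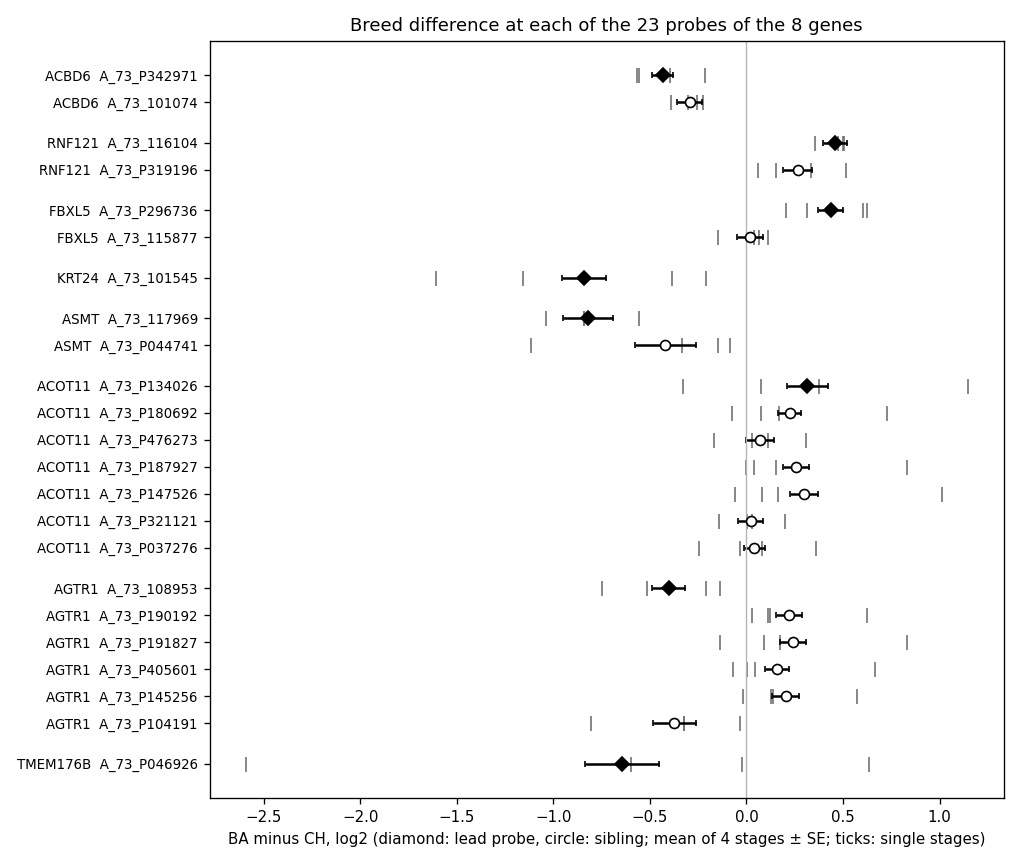
Average BA minus CH difference (log2, x axis) at each of the 23 probes, diamonds for lead probes and circles for siblings, with bars of 1 SE and grey ticks for the 4 single stages. *AGTR1* has 2 probes to the left of 0 and 4 to the right, and the *FBXL5* sibling sits at 0.02 while its lead is at 0.44.

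*ACOT11* was higher in BA at 110 dpc on all of its 7 probes. On the lead the sign was turned at 180 dpc, and the breeds overlapped at all stages after 110 dpc. The lead A_73_P134026 had 7.34, 7.38 and 7.64 in BA and 6.52 and 6.09 in CH at 110 dpc, a difference of 1.15. At 180 dpc BA had 6.32 and 6.57 and CH 6.96, 6.90 and 6.46, a difference of −0.33 with overlap. At 210 dpc the levels were 7.18, 6.93 and 7.18 in BA and 7.21, 6.45 and 6.50 in CH, a difference of 0.37. At 260 dpc they were 7.08 and 7.31 in BA and 7.27, 7.15 and 6.95 in CH, a difference of 0.07. The average was 0.32 ± 0.10 (SE). Of the siblings, A_73_P180692, A_73_P187927 and A_73_P147526 gave 0.22, 0.26 and 0.30, and A_73_P476273, A_73_P321121 and A_73_P037276 gave 0.07, 0.02 and 0.04. These 7 probes were bright, with 90.2% to 99.2% of all probes dimmer.

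The *ACOT11* and *AGTR1* probes fell into groups that did not follow the gene names. The dim *AGTR1* pair correlated with r = 0.96 over the 21 arrays, but with the 4 bright *AGTR1* probes the values were between −0.36 and −0.17. With the mean of each breed and stage group removed, the dim pair correlated at 0.75 and dim with bright probes at −0.02 to 0.47, so the negative values lay in the group means. The bright *AGTR1* probe A_73_P191827 instead followed the *ACOT11* probes A_73_P180692 (r = 0.975), A_73_P147526 (0.971) and A_73_P187927 (0.942), and with group means removed the first of these was 0.895. Over all 28 pairs of an *ACOT11* with a bright *AGTR1* probe the median was 0.75, against 0.63 for the 21 pairs within *ACOT11*, and with group means removed the medians were 0.47 and 0.35. The *ACOT11* probes A_73_P476273, A_73_P321121 and A_73_P037276, which showed the small breed differences, correlated with each other at 0.88 to 0.95. Probes of other genes behaved this way too. For A_73_P180692, 11 of 20132 tested probes passed r = 0.9, of which 4 were *ACOT11* or *AGTR1* probes and 3 had no gene name. The others were named *PLAAT1* (0.936), *C3H1orf109* (0.933 and 0.925) and *IL1RL1* (0.924), chosen here after their values were seen. For the *ACBD6* lead the count past r = 0.9 was also 11. All these values share the same 21 arrays.

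**Figure D4:**
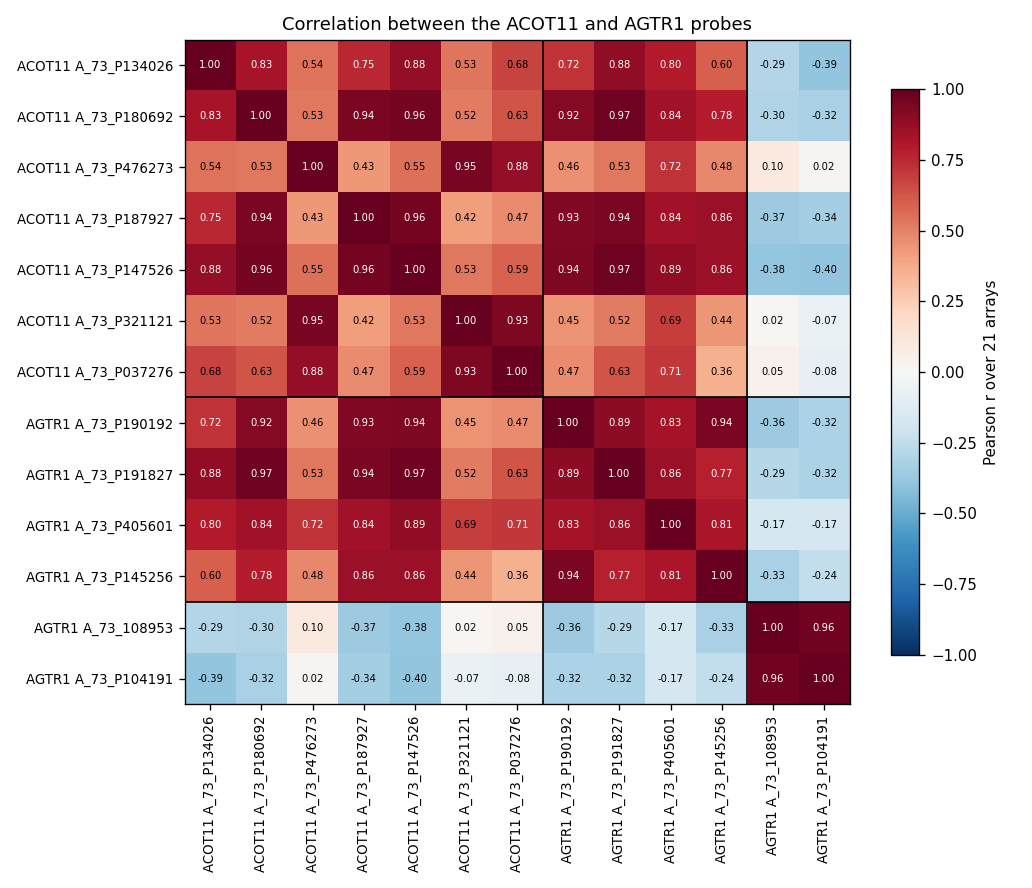
Pearson correlation over the 21 arrays between the 7 *ACOT11* probes, the 4 bright *AGTR1* probes and the 2 dim *AGTR1* probes (rows and columns, separated by black lines), red for positive and blue for negative values. The dim *AGTR1* pair stands apart at 0.96 with each other and at −0.40 to 0.10 with all other probes.

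Split by slide, the breed differences kept their direction for 6 of the 8 lead probes. These are the values that chose the genes, so the agreement is a description and no independent support. On 5 of the 6 slides both breeds were hybridised, and with stage means removed the lead probes of *ACBD6*, *KRT24*, *ASMT* and *AGTR1* were lower and those of *RNF121* and *FBXL5* higher in BA on 5 of 5. *AGTR1* was nearly level on one of these, at −0.001. *ACOT11* was higher on 4 of 5 and *TMEM176B* lower on 4 of 5, with a range of −1.50 to 0.78 for the latter. With slide as a block the average differences were −0.42 for *ACBD6*, 0.48 for *RNF121*, 0.41 for *FBXL5*, −0.76 for *KRT24*, −0.88 for *ASMT*, 0.32 for *ACOT11*, −0.36 for *AGTR1* and −0.50 for *TMEM176B*. In a mixed tissue, fewer cells of a type and less RNA per cell cannot be told apart. The leukocyte markers, higher in BA as given above, correlated with *RNF121* at r = 0.48 and with *FBXL5* at 0.45 with stage means removed, and at 0.12 and 0.02 within groups. Muscle fibre markers correlated with *KRT24* at 0.62 and with *ACBD6* at 0.51, and at 0.56 and 0.63 within groups, and their mean differed by −0.07 between BA and CH. The part of these cell types in the breed differences was not tested.

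The change from 110 to 260 dpc, averaged over both breeds, did not enter the choice of the genes and was tested with limma over all probes. It asks whether the genes are regulated as the muscle matures. Of the 23 probes 10 passed at an adjusted p under 0.05, 8 higher and 2 lower at 260 dpc, against 64.1% of all tested probes (33.3% higher and 30.8% lower). The 10 probes belonged to 5 of the 8 genes, with 3 of *ACOT11* and 3 of *AGTR1*. With other scalings the split was 12 higher and 0 lower with median scaling, 6 and 8 with quantile normalization and 1 and 4 in the unscaled table of the authors, in which the median of all tested probes moved to −0.36, against 0.04 here.

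*ACBD6* and the dim *AGTR1* pair rose. *ACBD6* rose by 0.72 ± 0.08 (SE) on the lead (limma adjusted p = 2.53e-07) and by 0.61 ± 0.10 on the sibling (3.26e-05). In the authors' unscaled table the *ACBD6* lead was at 0.33 (limma adjusted p = 0.151), and also in single breeds its call was lost there. *AGTR1* rose by 0.89 ± 0.13 on the lead (limma adjusted p = 8.52e-06), or 1.86 times, and by 0.78 ± 0.16 on the other dim probe (0.000415). Of the 4 bright *AGTR1* probes, 1 passed, A_73_P405601 at 0.24 ± 0.09 (0.0248), but with quantile normalization this probe was called lower at 260 dpc, at −0.32 (0.0236), as were the other 3. *ACOT11* passed on 3 of 7 probes, the same 3 that showed the small breed differences, with 0.43 on A_73_P476273, 0.32 on A_73_P321121 and 0.49 on A_73_P037276. With quantile normalization the first of these was at −0.03, and in the authors' table no *ACOT11* probe passed and the second was at −0.07. Its lead was at 0.28 ± 0.15 (limma adjusted p = 0.118).

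The lead probes of *RNF121* and *FBXL5* fell. *RNF121* fell by 0.31 ± 0.09 (SE) with a limma adjusted p of 0.00636, while its sibling was at −0.09 (0.509). *FBXL5* fell by 0.23 ± 0.09 on the lead (limma adjusted p = 0.0394), a call that was lost under 13 of 34 alternatives, among them median scaling, normexp, slide as a block and 8 of the 21 arrays left out, with values between −0.26 and −0.21 over all arrays left out in turn. *RNF121* lost its call with median scaling (0.0585) and with slide as a block (0.0965). *KRT24* at 0.08, *ASMT* at −0.39 and *TMEM176B* at 0.60 did not pass, with adjusted p of 0.671, 0.0757 and 0.0673. For *TMEM176B* the value was 0.96 with an adjusted p of 0.00577 without the BA foetus replicate 2 at 260 dpc, and 0.73 (0.0329) without the CH foetus replicate 1 at 260 dpc. It was 0.25 (0.447) without the BA foetus replicate 1 and 0.41 (0.174) without the CH foetus replicate 2 at 260 dpc, and it passed with median scaling (0.70, 0.0358), quantile normalization (0.65, 0.0485) and slide as a block (1.19, 0.0265).

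**Figure D5:**
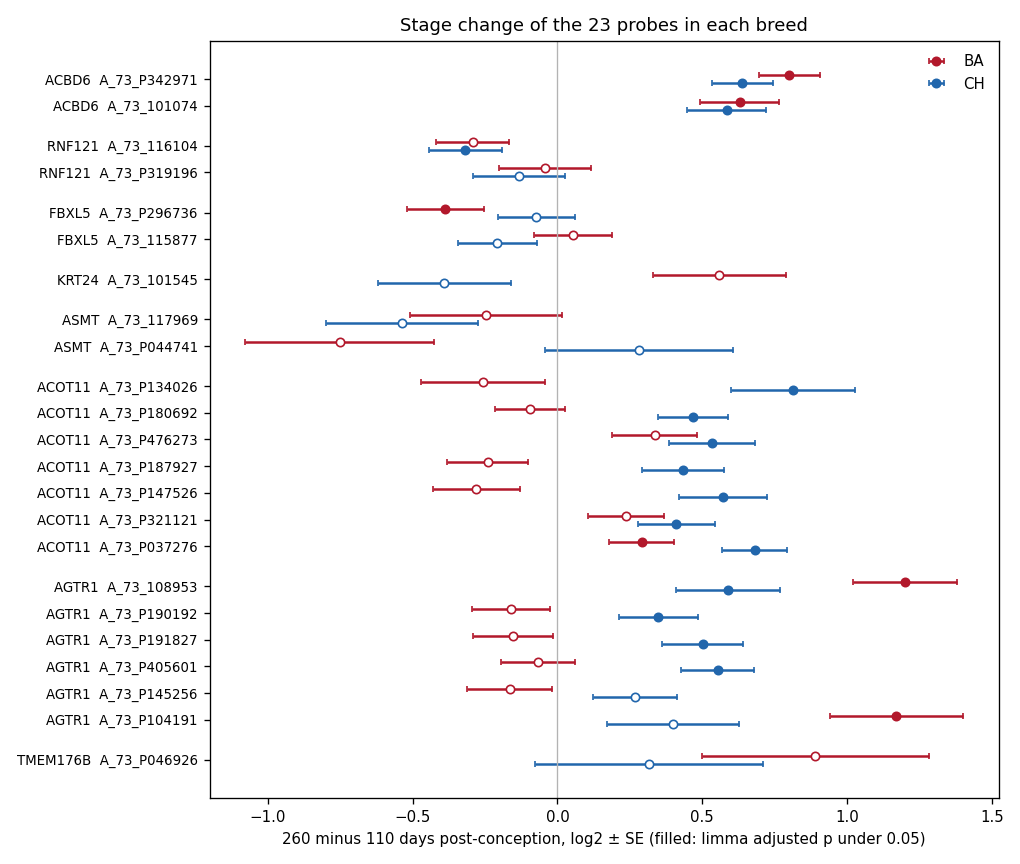
Difference between 260 and 110 dpc (log2, x axis) for each of the 23 probes, red for BA and blue for CH, with bars of 1 SE, and filled points where limma's adjusted p was under 0.05. *ACBD6* and the dim *AGTR1* lead lie to the right of 0 in both breeds, and the 7 *ACOT11* probes are filled in CH whereas only A_73_P037276 is filled in BA.

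Within single breeds 6 of 23 probes passed in BA, 5 higher and 1 lower at 260 dpc, against 52.4% of all tested probes (27.6% higher and 24.8% lower). In CH 14 passed, 13 higher and 1 lower, against 52.2% (27.5% higher and 24.7% lower). These 14 probes belonged to 4 of the 8 genes, with 7 of *ACOT11* and 4 of *AGTR1*. The 6 probes in BA also belonged to 4 genes. Probes of a gene that follow each other are no separate observations. With quantile normalization the splits were 6 higher and 9 lower in BA and 4 and 0 in CH, with median scaling 8 and 0 in BA and 13 and 0 in CH, and the authors' values gave 1 and 1 in BA and 0 and 1 in CH. With the scaling used here, 4 probes passed in both breeds, 10 in CH and not in BA and 2 in BA and not in CH. The shares of all tested probes in these classes were not counted, so nothing is read from this split. All counts within single breeds draw on the same arrays of 110 and 260 dpc as the breed differences that chose the genes. The calls within a breed are therefore not independent of the choice. Their contrast between breeds is a description and was not tested. *ACOT11* rose in CH on all 7 probes, by 0.41 to 0.81 (limma), and in BA on A_73_P037276, by 0.29, but with quantile normalization 1 of the 7 passed in CH, and 0 did with the authors' values. With quantile normalization the lead stood at 0.48 in CH (limma adjusted p = 0.0952) and passed in BA at −0.80 (0.00775). *AGTR1* rose on the dim lead in both breeds, by 1.20 ± 0.18 (SE) in BA (limma adjusted p = 2.7e-05) and by 0.59 ± 0.18 in CH (0.0107). The *FBXL5* lead fell by 0.39 in BA (limma adjusted p = 0.0204), lost under 6 of 33 alternatives, and the *RNF121* lead by 0.32 in CH (0.0431), lost under 19 of 33. The CH count fell to 5 without the CH foetus replicate 1 at 110 dpc, which leaves 1 CH array at that stage, and to 4 with quantile normalization. *AGTR1* in CH was no longer called without the CH foetus replicate 1 at 110 dpc (0.51, adjusted p = 0.0875) or without the CH foetus replicate 2 at 260 dpc (0.43, 0.0562), and the *ACOT11* lead without the CH foetus replicate 2 at 110 dpc (0.60, 0.0818).

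Sex and sire were tested as spreads within the groups, so only groups with both sexes or both sires inform them. The BA groups of 180 and 260 dpc and the CH group of 110 dpc held females alone. Sire Fallou alone gave the BA group of 180 dpc and Oulou alone that of 260 dpc. Indiana alone gave the CH group of 210 dpc. Sex and sire were thus uneven over the stages of a breed. No probe of the 8 genes passed limma's test between male and female foetuses (0 of 23 adjusted, 0 at an unadjusted p under 0.05), which 0.0695% of all tested probes did (0.00993% higher and 0.0596% lower in males). Between the BA sires 0 of 23 passed (1 unadjusted), against 0% of all tested probes. Between the CH sires 0 of 23 passed (2 unadjusted), against 0.00497%. The latter were the *RNF121* lead, at −0.21 ± 0.10 (SE), and the dim *AGTR1* probe A_73_P104191, at −0.41 ± 0.16. Both values are sire Indiana minus sire Jourdan, each with a limma adjusted p of 0.914. Between the BA sires it was the *ACBD6* sibling, at −0.25 ± 0.11 for Fallou minus Oulou (limma adjusted p = 0.931). Each sire belongs to 1 breed, so breed and sires cannot be told apart.

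Genes next to the members on the chromosome were compared between the breeds, with the 3 nearest tested genes on each side in the order of assembly ARS-UCD2.0. *ASMT* lies near a chromosome end and had neighbours on 1 side. Of 45 neighbours 1 passed, LOC407148, the closest tested gene on one side of *RNF121*, which was higher in BA by 0.77 ± 0.16 (SE, limma adjusted p = 0.0496), against 0.403% of all tested genes by their brightest probe. No neighbour was called under 26 of 33 alternatives. The genes beside *FBXL5* were *C1QTNF7* at −0.06 and *LDB2* at −0.25 (limma adjusted p = 0.0877), and those beside *ACBD6* were *QSOX1* at 0.19 and *STX6* at −0.07. *TTC4* at −0.01 and *SSBP3* at −0.007 flanked *ACOT11*, and *GYG1* at 0.18 and *PLSCR2* at 0.12 flanked *AGTR1*. Beyond *SSBP3*, the next tested gene, *MRPL37*, was at −0.64 ± 0.16 (SE, limma adjusted p = 0.0894).

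Genes listed beside the members by function, family or cell type did not pass the breed test. Of 92 such genes, 74 were on the array and 48 were tested. Of these, 0 passed in limma in either direction, and the median BA minus CH was 0.01. Among all 7932 tested genes 14 passed as higher and 18 as lower, with a median of −0.02. The unadjusted p was under 0.05 for *CD74* (class II chaperone, 0.49, limma adjusted p = 0.236), *ACOT7* (brain acyl-CoA thioesterase, 0.30, 0.283) and *KRT14* (basal keratin, −0.39, 0.309). On the *FBXL5* list, *ACO1* (iron regulatory protein), *FTH1* (ferritin heavy chain) and *SKP1* (ligase adaptor) were at −0.08, −0.08 and −0.04. *IREB2*, also listed, had no named probe on the array. For *ACBD6*, *NMT1* (myristoyl transferase) was at 0.02 and *ACBD3* at 0.12. For *ASMT*, *AANAT*, the enzyme before it in melatonin synthesis, was at −0.14 (limma adjusted p = 0.513).

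The tested genes whose pattern over the 21 arrays was most like each lead probe, with stage means removed, were given by Pearson's r as a description. Breed was not removed, so r holds the breed difference that chose the members. After each r, the value with group means removed is given. *RNF121* was most like *MSTN*, the inhibitor of muscle growth (r = 0.868, and 0.326 with group means removed), which was higher in BA by 2.00. Next came *MMP19*, a matrix metalloproteinase (0.858, and 0.22). *FBXL5* was most like *BLZF1* (0.869, and 0.491) and *MMP19* (0.840, and 0.23). *ACBD6* was most like *ZPR1* (0.812, and 0.307) and *MRFAP1L1* (0.803, and 0.366). *KRT24* was most like *ACTA1* (0.811, and 0.729) and *DHDH* (0.811, and 0.424), and *AGTR1* like the respiratory chain genes *NDUFA4* (0.820, and 0.808) and *ATP5MC1* (0.808, and 0.837). *ASMT* was most like *KRR1* (0.777, and 0.652) and the replication gene *MCM3* (0.775, but 0.0305 with group means removed). *ACOT11* was most like *PIGM* (0.870, and 0.642) and *DRAM1* (0.847, and 0.602), and *TMEM176B* like *SLC25A12* (0.799, and 0.577) and *ENTPD2* (0.765, and 0.488).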

How the data were processed

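The authors made the intensity values with Agilent Feature Extraction 10.7 (per the labels), with background and multiplicative detrending and no background subtraction. Their deposited value table is in log2, and 99.98% of its values differed from log2 scanner intensity by less than 0.01. Control spots and 258 outlier spot values were left out, spots of a probe were averaged, log2 intensities were reduced by their array's 75th percentile (525 to 1174 intensity units) and 2.69 was added. Probes with a group mean above 0 in 7 of the 8 breed and stage groups were tested (20132 of 43653). The fit of group means used limma 3.58.1 (R 4.3.3) and Benjamini-Hochberg adjustment over all tested probes, or over all probes for the *ASMT* probe under the filter. Probes were named through RefSeq accessions in the annotation of ARS-UCD2.0. No coordinates are printed because the design of the array rests on an older assembly. Each member was represented by its lead probe and siblings, and named genes followed a rule on likeness, neighbours and function. The members and lists were chosen with earlier results of these data known. The scripts were tested on simulated data. The number of arrays limits the precision. Alternatives were other scalings, backgrounds, filters, blocks, covariates and arrays left out. Replicate numbers do not pair foetuses: deviations of the 66 pairs of arrays with the same number had a median correlation of 0.03 and those of the 126 other pairs one of −0.003.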

Additional observations from a re-analysis of the deposited data

Results flagged for a closer look

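In 4 probes all BA arrays of 260 dpc lay on one side of those of 110 dpc, and all CH arrays on the opposite side. The share of all tested probes that did so was not counted, so nothing is read from this count. Each array is a different foetus, and the difference between the breeds was not tested. *KRT24* stood 0.56 higher at 260 dpc in BA and at −0.39 in CH, neither of which passed in limma, though the BA value passed under 10 of 33 alternatives, among them median scaling (0.69, adjusted p = 0.0185) and quantile normalization (0.69, 0.021), and the CH value in the authors' table (−0.76, 0.029). *ACOT11* stood at −0.26 in BA and at 0.81 in CH on the lead A_73_P134026, at −0.24 and 0.43 on A_73_P187927 and at −0.28 and 0.57 on A_73_P147526. The CH values of these *ACOT11* probes passed and the BA values did not, but with quantile normalization the lead passed in BA (−0.80, limma adjusted p = 0.00775) and not in CH (0.48, 0.0952). The genes were chosen for breed differences on these same arrays, so the opposite directions are no independent observation.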

How the results depend on the processing

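The genes and lead probes were chosen for their average breed difference on these arrays, so its persistence here is a description and no independent support. The average breed difference of each of the 8 lead probes kept its direction under all 33 alternatives and moved by less than the replicate SD. For *ACOT11*, however, this difference fell from 0.32 to 0.17 in female foetuses alone. The median of its size over the lead probes was 0.44 to 0.47 with each array left out. With the replicate number as a block, that median was 0.46, the stage counts were 10, 6 and 13 of 23 for both breeds, BA and CH, and the count of neighbours was 0. Under the replicate block, *KRT24* in BA passed (0.63, adjusted p = 0.0176), and it moved no count of members by over 1.5 times. Of the stage counts (10, 6 and 14), the authors' value table gave 5, 2 and 1, quantile normalization 15 in BA and 4 in CH, and female foetuses alone 7 in CH. With each array left out they ran from 7 to 11, from 4 to 8 and from 5 to 14. The count of probes with all arrays of both breeds apart (added after the data were seen) was 0 with normexp and with the authors' table, and 1 with each array left out. The counts for sex, for sires and for related genes were 0 under all alternatives run. The 1 neighbour call was 0 with median scaling, normexp, the authors' table, no filter, the detection filter, sex as a covariate, slide or replicate block, trended variance and female foetuses alone, and 0 to 2 with arrays left out (2 without BA replicate 1 at 110 dpc and without CH replicate 2 at 260 dpc). Of stage changes that had passed, 8 values turned sign over all member probes, all of bright *ACOT11* or *AGTR1* probes, 4 with quantile normalization and 4 in the authors' table, and 1 of them passed with the opposite sign (*AGTR1* A_73_P405601, −0.32). Of lead probes, those that turned had not passed. On average over the breeds these were *ACOT11* with quantile normalization (−0.16) and *ACOT11* (−0.11) and *KRT24* (−0.31) in the authors' table. In BA they were *ASMT* (0.12) and *ACOT11* (0.0088) with the slide block. In CH they were *FBXL5* with normexp (0.015) and *TMEM176B* in the authors' table (−0.052) and without CH replicate 2 at 260 dpc (−0.075, in a range up to 0.57 over the arrays left out). The number of tested probes past the breed threshold was 72, and 17 with the authors' table, 18 with the slide block, 20 in females, 32 with no filter, 45 with the replicate block and 25 to 218 with arrays left out. The cause of these changes was not tested. Dim probes, such as the second *ASMT* probe, limit what signal over background allows.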
